A study of Mus musculus with 18 samples.

Results

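The genes described here are 31 mouse genes of glycolysis, lactate export and the response to low oxygen, chosen from a fixed list of names, and all 31 were found among 26149 genes counted in both tables. They comprise the glucose importer gene Slc2a1, the enzymes from hexokinase to lactate dehydrogenase, the lactate exporter Slc16a3, the pyruvate dehydrogenase kinase Pdk1 and 10 genes that sense oxygen or are induced by hypoxia. RNA was sequenced from 18 libraries of mouse macrophages that carried either the wild-type (WT) lipid-sensing nuclear receptor PPARg or its T166A form, in which a phosphorylatable threonine is replaced by alanine. Bone marrow-derived macrophages (BMDM) were grown from femur and tibia marrow of C57BL/6J or PPARg T166A mice for 7 days in M-CSF at 50 ng/ml, the growth factor that turns marrow cells into macrophages, with 3 libraries per genotype. In each genotype, replicates 1 and 2 carried the batch label B1 and replicate 3 the label B2. Wound macrophages came from digested dorsal skin at day 6 after injury, WT or PPARg T166A, by capture on magnetic beads against F4/80, a macrophage surface protein, with 6 libraries per genotype and no batch label. The mutation is not described as restricted to macrophages, and neither a promoter nor a Cre line is named. Whether replicates are separate cultures or mice is not clear from the labels, and p-values therefore cover the spread between these samples, which may be technical.

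Glycolysis splits glucose to pyruvate and yields ATP without oxygen, and macrophages draw on it heavily when activated or when they enter poorly perfused tissue such as a wound. Hexokinases trap glucose, phosphofructokinases commit it to the pathway, and lactate dehydrogenase regenerates the NAD+ that the pathway consumes. Under low oxygen the prolyl hydroxylases encoded by Egln1 and Egln3 no longer mark the transcription factor subunit HIF-1 alpha for destruction, and HIF-1 then raises transcription of glucose importers, glycolytic enzymes and genes such as Bnip3, Ankrd37 and Car9 through a short core sequence in their promoters.

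The sequences below show where that core lies in promoters of genes whose values follow. They are the 250 bases before the transcription start in RefSeq promoters on GRCm38.p6, the assembly behind the files' mm10 build, printed 5′ to 3′ on the gene's strand, with ACGTG, read on either strand, in capitals. Pgk1, Hk2 and Egln3 are shown because they changed in wound macrophages, Hif1a and Ldha because they are the factor itself and a classical target, and Eno1 as a gene that changed and has no match.
Pgk1 (chrX:106186850-106187099, plus strand): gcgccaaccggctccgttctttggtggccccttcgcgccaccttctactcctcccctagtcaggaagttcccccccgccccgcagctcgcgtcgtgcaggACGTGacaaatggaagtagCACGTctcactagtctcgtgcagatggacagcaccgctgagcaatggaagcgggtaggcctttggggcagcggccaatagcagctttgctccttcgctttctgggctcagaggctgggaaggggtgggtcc
Ldha (chr7:46845554-46845803, plus strand): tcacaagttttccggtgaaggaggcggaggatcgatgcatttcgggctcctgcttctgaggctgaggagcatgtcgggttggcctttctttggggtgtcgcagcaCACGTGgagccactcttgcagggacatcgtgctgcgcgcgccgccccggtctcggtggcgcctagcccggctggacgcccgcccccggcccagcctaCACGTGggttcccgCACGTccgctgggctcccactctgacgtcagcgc
Hk2 (chr6:82774455-82774704, minus strand): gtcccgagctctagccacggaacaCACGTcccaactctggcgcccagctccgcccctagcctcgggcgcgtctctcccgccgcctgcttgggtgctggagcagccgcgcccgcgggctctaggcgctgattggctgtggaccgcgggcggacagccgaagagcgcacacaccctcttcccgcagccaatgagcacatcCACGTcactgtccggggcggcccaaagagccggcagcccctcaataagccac
Egln3 (chr12:54203875-54204124, minus strand): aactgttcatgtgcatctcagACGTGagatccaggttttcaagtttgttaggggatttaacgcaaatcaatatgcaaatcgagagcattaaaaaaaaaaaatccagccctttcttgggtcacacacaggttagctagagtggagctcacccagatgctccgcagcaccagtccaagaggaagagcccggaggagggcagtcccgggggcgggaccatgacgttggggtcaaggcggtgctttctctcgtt
Hif1a (chr12:73907617-73907866, plus strand): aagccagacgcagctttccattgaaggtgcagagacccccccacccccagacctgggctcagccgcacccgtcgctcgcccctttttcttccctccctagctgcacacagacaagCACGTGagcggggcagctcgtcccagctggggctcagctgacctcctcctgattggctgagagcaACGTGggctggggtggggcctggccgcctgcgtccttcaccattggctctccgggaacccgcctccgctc
Eno1 (chr4:150236458-150236707, plus strand): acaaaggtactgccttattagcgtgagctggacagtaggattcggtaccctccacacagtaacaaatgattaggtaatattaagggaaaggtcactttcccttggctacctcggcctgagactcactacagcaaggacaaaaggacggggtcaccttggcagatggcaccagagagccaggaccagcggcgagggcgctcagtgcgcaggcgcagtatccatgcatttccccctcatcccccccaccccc
Pgk1 held the letters at 150 and 131 bases before the start, Ldha at 145, 48 and 34, Hk2 at 226 and 52, Egln3 at 229, and Hif1a at 135 and 70. RefSeq promoters were matched for 30 of the 31 genes. ACGTG occurred in 23 of them (76.7%), counting all windows of a gene from 250 bases before to 50 after a start, against 21.8% of 27025 genes in the table. The 7 without it were Eno1, Gpi1, Pdk1, Pfkfb4, Pfkl, Pfkp and Tpi1. GCGTG, searched in the same way on both strands and able to share bases with ACGTG, occurred in 18 of 30 (60%) against 35.2%. The windows also differed in base composition, with a median of 63% G or C and 21 CpG dinucleotides in 45 windows of these genes against 52.7% and 7 in all 32851. The part of base composition in the motif shares was not tested, and a match is a description of letters, not of binding.

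Before the comparisons, some features of the libraries bear on every result. BMDM libraries held 40072513 to 44152639 gene counts and wound libraries 29357354 to 38774475. All 10 macrophage markers were detected in both sources, with a summed level of 36522 to 53569 CPM (counts scaled to the size of the library) in BMDM and 11982 to 17078 in wound libraries. Fibroblast markers summed to 5989 to 11115 CPM in wound libraries, so the bead-captured fraction was not macrophage RNA alone. In BMDM, T166A replicate 3 stood apart, with 410 CPM of fibroblast markers against 4.24 to 44.7 CPM in the WT libraries and 7.41 and 10.2 CPM in the other T166A libraries. That sum rested on collagen genes, with Col1a1 at 243.1, Col3a1 at 102.6 and Col1a2 at 62.8 CPM. In the same library Dcn, Pdgfra and Dpt read 0.62, 0.40 and 0.52 CPM, and Lum and Fbln1 read 0. In bulk libraries of this kind, fewer cells of a type and less RNA per cell cannot be told apart. CPM values below are scaled by TMM factors. Gene levels within a library are compared only per kilobase (kb) of transcript. For Pkm, Eno1, Pfkl, Pfkfb4 and Higd1a the length was that of the longest other RefSeq row of the gene, not of the row counted, and their levels and shares per kb rest on it.

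In wound macrophages, T166A libraries held more RNA of a block of consecutive glycolytic enzymes and of 3 hypoxia-induced genes, and less of Hk2. Of the 31 genes, 12 were higher in T166A, 2 were lower and 17 were not called by edgeR's quasi-likelihood test at a Benjamini-Hochberg adjusted p under 0.05 over all 15473 genes tested. Across all genes, 25.9% were called, 12.7% higher and 13.2% lower. Their median log2 fold change was 0.03, against 0.01 for all genes, and the 17 uncalled genes lay between -0.25 for Pfkm and 0.20 for Aldoc. Positions without overlap between genotypes were held by 4 genes with T166A above (background 5.43%) and 2 with T166A below (background 6.63%).

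**Figure D1:**
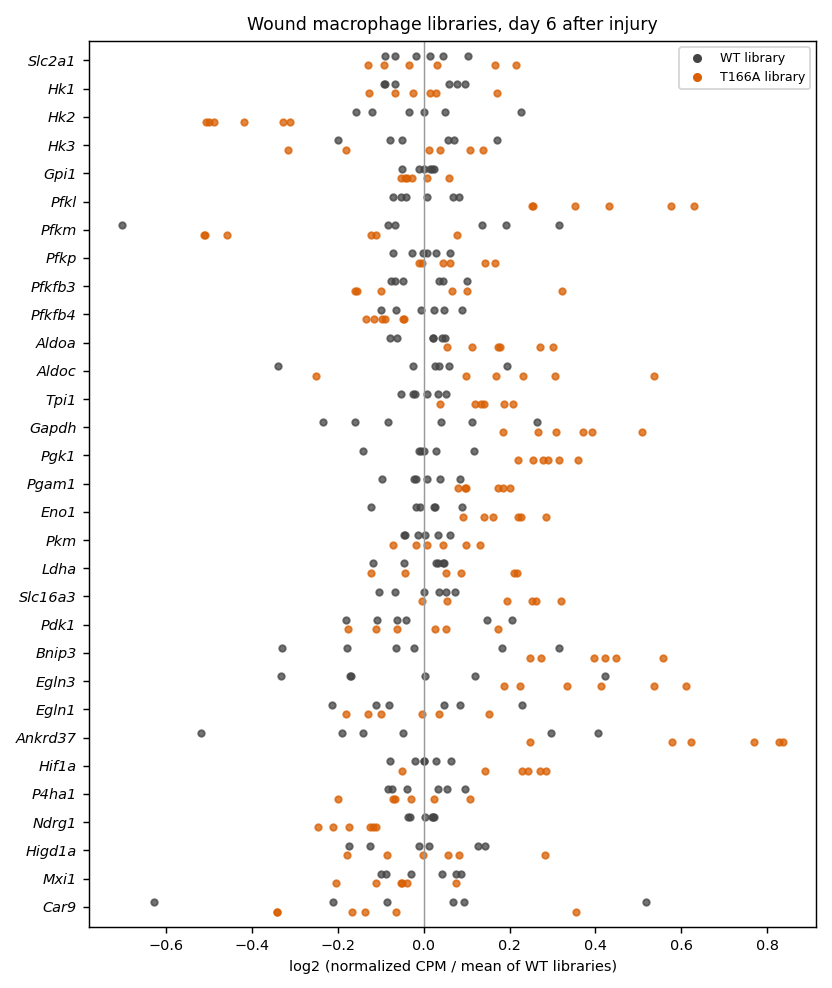
Normalized CPM of each gene in every wound macrophage library, as the log2 ratio to the mean of the 6 WT libraries (x axis), with WT in grey and T166A in orange. For Pfkl, Aldoa, Pgk1 and Eno1 every T166A library lies to the right of every WT library, and for Hk2 and Ndrg1 to the left.

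Glucose entry and its first phosphorylation did not move together. Slc2a1, which encodes the glucose importer GLUT1 (chromosome 4, 119108745 to 119137330), ranged from 331 to 378.5 CPM in WT wound libraries (median 351.8) and from 321.7 to 408.5 in T166A (median 351.8). Its genotypes overlapped, with a log2 change of 0.03 (SE 0.06, edgeR adjusted p = 0.739). Hk2, the inducible hexokinase bound to mitochondria (chromosome 6, 82725025 to 82774454), ranged from 632.5 to 825.1 CPM in WT (median 697.2) and from 496 to 568.7 in T166A (median 515). All 6 T166A libraries lay below all 6 WT libraries, and Hk2 was 1.34-fold lower (log2 -0.42, SE 0.06, edgeR adjusted p = 1.65e-05). The other hexokinases were not called, with log2 fold changes of 0.00 for the widely expressed Hk1 and -0.02 for the myeloid Hk3. Hk2 accordingly took 38.5% ± 1.002 (SD, n = 6) of the hexokinase RNA per kb in WT and 32.2% ± 1.27 in T166A, ranges of 37.3 to 39.9% and 30.9 to 34.3% that did not overlap.

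At the committed step, the liver-type phosphofructokinase rose while its relatives were not called. Pfkl (chromosome 10, 77986947 to 78009807) ranged from 61.6 to 68.5 CPM in WT (median 63.9) and from 77 to 100.1 in T166A (median 84.9). No library overlapped, and Pfkl was 1.34-fold higher (log2 0.42, SE 0.06, edgeR adjusted p = 3.63e-05). The platelet-type Pfkp, the most abundant of the family in wounds per kb, had a log2 fold change of 0.07 and the muscle-type Pfkm one of -0.25. Pfkl's share of the family went from 20.2% ± 0.34 to 24.6% ± 1.28 (SD, n = 6), with no overlap of the ranges. Pfkfb3 and Pfkfb4, which set the level of the phosphofructokinase activator fructose 2,6-bisphosphate, had log2 fold changes of 0.02 and -0.09 and were not called. Gpi1, the isomerase between hexokinase and phosphofructokinase, had one of -0.02.

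Aldoa, Tpi1, Gapdh, Pgk1, Pgam1 and Eno1 all rose. In what follows they are called the 6 genes from aldolase to enolase, which leaves out the minor aldolase Aldoc. Aldoa, the aldolase that made up 99.8% of aldolase RNA per kb here, ranged from 489.3 to 534.6 CPM in WT (median 524.7) and from 536.8 to 636.2 in T166A (median 583.6), without overlap. It was 1.14-fold higher (log2 0.18, SE 0.05, edgeR adjusted p = 0.00874), whereas the minor form Aldoc had a log2 change of 0.20 (SE 0.17) and was not called. Tpi1, which interconverts the triose phosphates, ranged from 141.2 to 152 CPM in WT (median 146) and from 150.3 to 169.2 in T166A (median 161.2), with overlap in the lowest T166A library. It changed by 0.14 on the log2 scale (SE 0.05, edgeR adjusted p = 0.0251). Gapdh, the glyceraldehyde-phosphate dehydrogenase often used as a reference gene, ranged from 35 to 49.4 CPM in WT (median 40.6) and from 46.8 to 58.5 in T166A (median 52.1). The genotypes overlapped at their edges, and Gapdh was 1.27-fold higher (log2 0.34, SE 0.08, edgeR adjusted p = 0.00161). Gapdh has many near-identical processed copies in the mouse genome, and how multiply mapped reads were treated is not stated in the labels, so its level is uncertain.

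Pgk1, the first ATP-yielding enzyme of the pathway (chromosome X, 106187100 to 106203699), ranged from 224.9 to 269.4 CPM in WT (median 247.6) and from 289.1 to 318.4 in T166A (median 302). No library overlapped, and the rise was 1.22-fold (log2 0.29, SE 0.05, edgeR adjusted p = 0.000101). Pgam1, the phosphoglycerate mutase, ranged from 157.9 to 179 CPM in WT (median 168.4) and from 178.6 to 194.3 in T166A (median 185.7), and its log2 fold change was 0.14 (SE 0.05, edgeR adjusted p = 0.0261). The highest WT library of Pgam1 just passed the lowest T166A library. Eno1, the main enolase, ranged from 432.3 to 500.8 CPM in WT (median 473.7) and from 502.2 to 573.8 in T166A (median 537.7), without overlap, and was 1.14-fold higher (log2 0.19, SE 0.05, edgeR adjusted p = 0.00586). The rises of these 6 genes were thus small, between 1.10-fold and 1.27-fold.

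Below enolase, pyruvate kinase and lactate dehydrogenase were not called. Pkm, the pyruvate kinase gene, had a log2 change of 0.03 (SE 0.05, edgeR adjusted p = 0.653). Ldha, the lactate dehydrogenase subunit that favours lactate formation, ranged from 514.3 to 577.4 CPM in WT (median 570.6) and from 513.1 to 649 in T166A (median 586.2). The genotypes overlapped, with 4 of the 6 T166A libraries above the highest WT library, and its log2 change of 0.07 (SE 0.06) was not called. Slc16a3, the exporter of lactate, ranged from 115.2 to 130.3 CPM in WT (median 125.5) and from 123.5 to 154.5 in T166A (median 144.7). It rose 1.14-fold (log2 0.18, SE 0.06, edgeR adjusted p = 0.0182), with 2 T166A libraries inside the WT range. Pdk1, a kinase that inhibits pyruvate dehydrogenase, had a log2 fold change of -0.01.

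Genes induced by hypoxia were divided. Bnip3, a mitophagy receptor, ranged from 21 to 32.9 CPM in WT (median 25.6) and from 31.3 to 38.8 in T166A (median 35.1), and it rose 1.31-fold (log2 0.39, SE 0.09, edgeR adjusted p = 0.00223). Egln3, the oxygen-sensing hydroxylase that hypoxia induces, ranged from 7.28 to 12.3 CPM in WT (median 8.67) and from 10.4 to 14 in T166A (median 11.9), and it also rose 1.31-fold (log2 0.39, SE 0.12, edgeR adjusted p = 0.0134). Ankrd37, a sensitive HIF-1 target, ranged from 0.793 to 1.51 CPM in WT (median 1.06) and from 1.35 to 2.03 in T166A (median 1.84). In Bnip3 and Egln3 1 WT library, and in Ankrd37 2, reached the lowest T166A value. Ankrd37 rose 1.58-fold (log2 0.66, SE 0.22, edgeR adjusted p = 0.0264) at a level near 1 CPM.

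Hif1a itself, the oxygen-regulated subunit of HIF-1 (chromosome 12, 73901324 to 73947554), ranged from 783.6 to 863.5 CPM in WT (median 827.1) and from 797.7 to 1007 in T166A (median 973.6). It was 1.14-fold higher (log2 0.19, SE 0.06, edgeR adjusted p = 0.0126), with 1 T166A library inside the WT range. Ndrg1, a stress-response gene that hypoxia induces in many cells (chromosome 15, 66929318 to 66969641), ranged from 836.7 to 873 CPM in WT (median 865.4) and from 724.3 to 795.2 in T166A (median 774.5), without overlap. It was 1.12-fold lower (log2 -0.16, SE 0.05, edgeR adjusted p = 0.00933). The other 5 were not called, with log2 fold changes of -0.03 for the main oxygen sensor Egln1, -0.04 for the collagen prolyl hydroxylase subunit P4ha1, 0.03 for the mitochondrial protein gene Higd1a, -0.06 for the MYC antagonist gene Mxi1 and -0.09 for the carbonic anhydrase gene Car9.

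Markers of other cells differed between the genotypes in the same libraries. Of the adipocyte markers, all 7 tested were higher in T166A, and their summed level was 14.3 to 31.5 CPM in WT and 86.2 to 152.5 in T166A, with none of the 8 at 0. Of the 10 skeletal muscle markers, 8 were lower, with sums of 94.9 to 127.1 CPM in WT and 64.7 to 79.1 in T166A. Both sums separated the genotypes completely. Neutrophil markers summed to 258.6 to 308 CPM in WT and 157.7 to 260.9 in T166A, with 4 of 7 tested lower, and 7 of 10 macrophage markers were lower (median log2 -0.31). The macrophage sums did not overlap either, at 14011 to 17078 CPM in WT and 11982 to 13939 in T166A. Of the 7 endothelial cell markers, 4 were higher and 0 lower (median log2 0.44), with overlapping sums of 963.6 to 1361 CPM in WT and 1157 to 1701 in T166A. The part of endothelial and macrophage content in the gene differences was not tested. Of the other lists, 1 of 8 keratinocyte and 1 of 5 erythroid markers tested were lower, and 2 of 7 dendritic cell markers were higher and 2 lower. Of the 7 T and NK cell markers, 6 were among the genes counted, and 0 of these were abundant enough to be tested. Fibroblast markers overlapped, at 7136 to 10994 CPM in WT and 5989 to 11115 in T166A.

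With the skeletal muscle score as a covariate, 5 of these genes were still higher (Pfkl, Gapdh, Pgk1, Bnip3 and Egln3) and 0 were lower, while calls over all genes fell from 4011 to 794. The median over the 31 was then 0.20, and the log2 fold changes that no longer passed were 0.24 for Aldoa, 0.22 for Tpi1, 0.20 for Eno1, 0.15 for Slc16a3, 0.09 for Pgam1, 1.08 for Ankrd37, 0.02 for Hif1a, -0.40 for Hk2 and -0.13 for Ndrg1. That score widened the errors, to an SE of 0.13 for Aldoa and 0.15 for Hk2, so a lost call here is not by itself a smaller difference. With the neutrophil score, 6 were higher, the same 5 and Eno1, and Hk2 was lower, beside 3426 genes called in all. With the adipocyte score, 0 were higher and Hk2 alone was lower, while calls over all genes fell to 722. The median over the 31 was then -0.10, with Pgk1 and Eno1 at 0.33 and Gapdh at 0.41 but Pfkl at 0.13, Bnip3 at 0.01 and Egln3 at -0.34. For Eno3 and Pdk4, genes outside the 31, the SE was 0.39 and 0.45 with this score and 0.18 and 0.16 with the neutrophil score. A lost call or turned sign with the adipocyte score is therefore not by itself a changed difference. Keratinocyte and fibroblast scores together left 12 higher and 3 lower, beside 4639 genes called in all. Because adipocyte and muscle sums did not overlap between genotypes, those scores and the genotype cannot be told apart. Scaling by library size alone gave 14 higher and 1 lower, as it moved the median of all genes from 0.01 to 0.10 and the calls over all genes from 1963 higher and 2048 lower to 3357 and 1308, and Ndrg1 was then not called. Tpi1 lost its call without WT replicate 1 or 6 or T166A replicate 1 (edgeR adjusted p = 0.0508 to 0.0546), Pgam1 without WT replicate 2 or T166A replicate 1, 4 or 6 (0.0514 to 0.0634), and Ankrd37 without WT replicate 4 or 5 or T166A replicate 6 (0.0511 to 0.0629), while their log2 fold changes stayed between 0.13 and 0.14, 0.12 and 0.13, and 0.58 and 0.64.

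In BMDM, most of the same genes were lower in T166A libraries, but none passed the test over all genes. edgeR, with batch in the fit, called 0 of the 31, beside 9 of 13139 genes in all (0.0685%, with 0.0609% higher and 0.00761% lower). At an unadjusted p under 0.05, 14 of these genes were lower and 0 were higher, against 831 lower and 856 higher of all genes tested. The median log2 fold change was -0.34, against -0.02 for all genes, and 24 of the 31 were negative. DESeq2 called 7 of them lower (Slc2a1, Aldoa, Pgk1, Pkm, Slc16a3, Pdk1 and Ankrd37; background 1.12%) and limma-voom with quality weights 1, Slc2a1 (background 0.221%). For 12 of the 31, every T166A library lay below every WT library (background 7.05%), and for 0 above (background 6.64%).

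**Figure D2:**
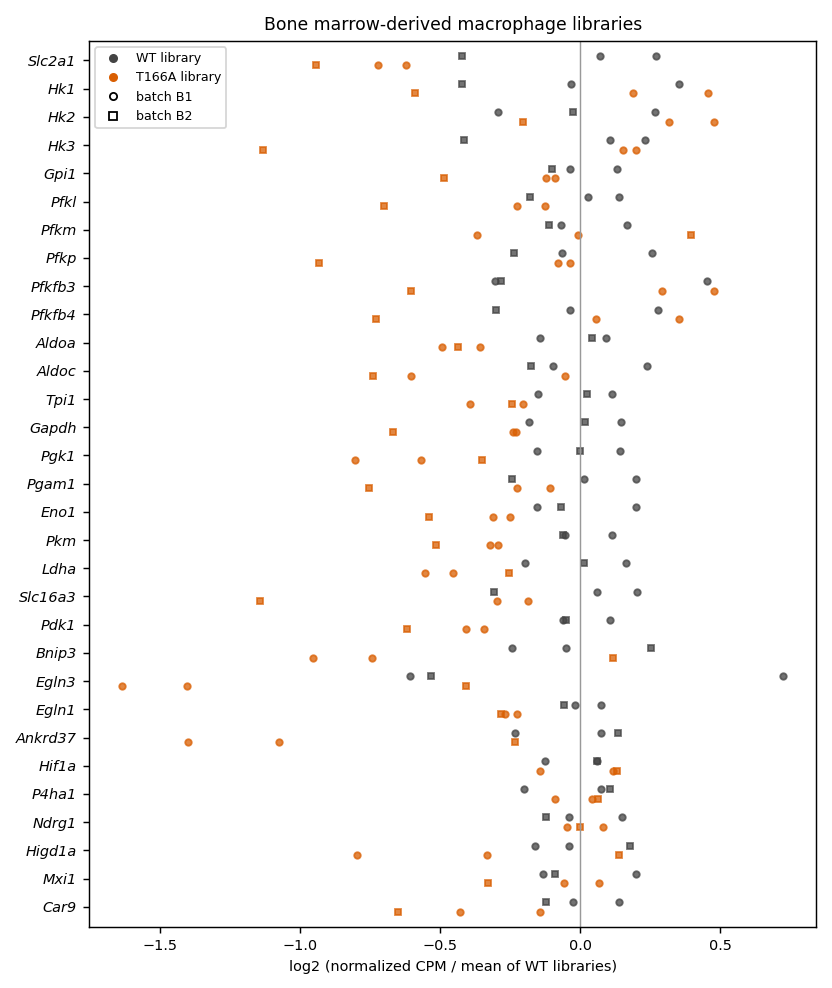
Normalized CPM of each gene in every BMDM library, as the log2 ratio to the mean of the 3 WT libraries (x axis), with WT in grey, T166A in orange, circles for batch B1 and squares for B2. For 12 genes, among them Slc2a1, Aldoa, Pgk1, Pkm and Ldha, the 3 T166A libraries lie to the left of the 3 WT libraries.

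Slc2a1 read 107.8, 93.9 and 66.8 CPM in WT replicates 1 to 3 and 58.2, 54.3 and 46.5 in T166A replicates 1 to 3. The genotypes did not overlap, and the difference was negative in both batches, at -0.84 in B1 and -0.52 in B2 (log2). It had the smallest p of the 31 by edgeR, with a log2 change of -0.74 (SE 0.14, adjusted p = 0.129). Hk2, which fell in wounds, read 41.2, 27.9 and 33.6 CPM in WT and 47.7, 42.6 and 29.7 in T166A, overlapping, with a log2 change of 0.20 (SE 0.19). Pfkl, which rose in wounds, read 70.2, 65 and 56.3 CPM in WT and 58.5, 54.6 and 39.3 in T166A, also overlapping, with a log2 change of -0.34 (SE 0.13, edgeR adjusted p = 0.335).

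The 6 genes from aldolase to enolase all had negative values in both batches. Aldoa read 1420, 1672 and 1614 CPM in WT and 1114, 1225 and 1159 in T166A, with a log2 change of -0.43 (SE 0.12, edgeR adjusted p = 0.243). Pgk1 read 365.7, 448.3 and 406.6 CPM in WT and 233.3, 274.3 and 318.8 in T166A, with one of -0.57 (SE 0.14, edgeR adjusted p = 0.201). Neither gene's genotypes overlapped. Tpi1 read 444, 533.4 and 501.5 CPM against 375, 427.8 and 416.6, and Gapdh 68.3, 85.8 and 78.5 CPM against 66.1, 65.6 and 48.8. Eno1 read 954.5, 1220 and 1014 CPM against 856.5, 893.8 and 730.6, and all 3 were likewise without overlap. Pgam1 read 297.9, 338.5 and 249.2 CPM in WT and 252.6, 274 and 174.9 in T166A, which overlapped. The log2 fold changes of these 4 ran from -0.38 for Gapdh to -0.28 for Tpi1.

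Lower in the pathway, Ldha read 825.6, 1059 and 955.2 CPM in WT and 645.3, 691.4 and 792.8 in T166A, without overlap (log2 -0.42, SE 0.14, edgeR adjusted p = 0.283). Pkm had a log2 fold change of -0.38 and Pdk1 one of -0.45, both without overlap. Slc16a3 read 95.8, 105.8 and 74.2 CPM in WT and 80.7, 74.9 and 41.6 in T166A (log2 -0.52, SE 0.14). That gene's genotypes overlapped across batches, with differences of -0.37 in B1 and -0.83 in B2.

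In 4 hypoxia-induced genes the difference was smaller or absent in batch B2. Ankrd37 read 9.57, 11.8 and 12.3 CPM in WT and 4.26, 5.33 and 9.57 in T166A (log2 -0.89, SE 0.24, edgeR adjusted p = 0.23), with differences of -1.15 in B1 and -0.36 in B2. Bnip3 read 46.9, 41 and 57.8 CPM in WT and 25.1, 29 and 52.6 in T166A, with differences of -0.70 and -0.14. Egln3 read 11.3, 4.497 and 4.73 CPM in WT and 2.59, 2.21 and 5.17 in T166A, and its difference was -1.56 in B1 and 0.13 in B2. Higd1a read 23.9, 22 and 27.8 CPM in WT and 14.1, 19.5 and 27 in T166A (log2 -0.31), with differences of -0.46 and -0.04. In each of these 4 genes the T166A library of B2 read higher than those of B1. Hif1a read 95.1, 83.8 and 95.2 CPM in WT and 82.7, 98.9 and 99.9 in T166A (log2 0.04, SE 0.13), with overlap. Ndrg1 read 87.5, 76.7 and 72.6 CPM in WT and 83.4, 76.4 and 78.8 in T166A (log2 0.01, SE 0.13). Of the remaining genes, Car9 (-0.40) and Egln1 (-0.26) had T166A below WT in every library, and Aldoc (-0.44), Pfkp (-0.34), Hk3 (-0.23), Gpi1 (-0.23), Mxi1 (-0.10), Pfkfb4 (-0.09), P4ha1 (0.01), Pfkm (0.02), Hk1 (0.05) and Pfkfb3 (0.07) overlapped.

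Within batches, the median over the 31 genes was -0.28 in B1 and -0.36 in B2 (all genes -0.00 and -0.06), and 21 genes (67.7%) were negative in both, against 29.7% of all genes. B2 has 1 library per genotype, so its values carry no error. A trend with transcript length ran through the same libraries, with a Spearman correlation of 0.45 between length and log2 fold change across 12997 genes, which are not independent replicates. Transcripts of 1 to 2 kb had a median of -0.17 over all genes and -0.42 over the 7 of these genes in that class. Those of 2 to 3 kb had -0.07 and, over 12 of these genes, -0.34. At 3 to 4 kb the medians were 0.02 and, over 5 of these genes, -0.26. At 4 to 6 kb they were 0.14 and, over 6 of these genes, 0.02, with 2 of the 6 negative. With each library's length trend removed the median over the 31 was -0.27. Without T166A replicate 3, the library with collagen transcripts, it was -0.28.

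The difference between the sources was tested directly, as the genotype difference in wound macrophages minus that in BMDM in a fit over all 18 libraries. Of the 31 genes, 16 had a higher and 1, Hk2, a lower T166A-to-WT ratio in wounds than in BMDM (edgeR adjusted p under 0.05 over 16586 genes). Across all genes 14.3% were called, 6.1% higher and 8.17% lower. The median difference over the 31 was 0.45 on the log2 scale, against 0.03 for all genes. The 16 were Slc2a1, Pfkl, Pfkp, the 6 from Aldoa to Eno1, Pkm, Ldha, Slc16a3, Pdk1, Bnip3, Egln3 and Ankrd37. For each gene this fit pools the spread of both sources, although BMDM libraries varied more (biological coefficient of variation 0.279, wounds 0.133, joint 0.179). Its errors may therefore understate the spread in BMDM, as for Pgk1, with an SE of 0.12 here and 0.14 in BMDM alone. Slc2a1, Pfkp, Pkm, Ldha and Pdk1 were called here but by edgeR in neither source alone.

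**Figure D3:**
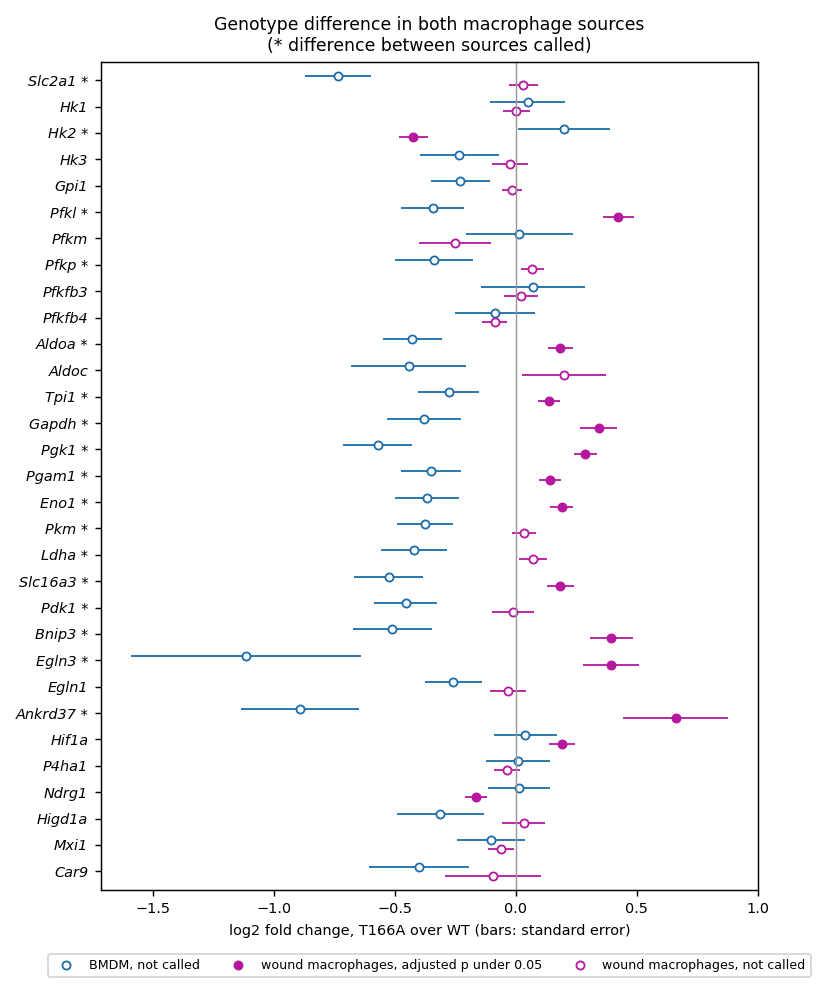
Log2 fold change of T166A over WT for each gene in BMDM (blue) and wound macrophages (magenta), with standard errors; filled points passed an edgeR adjusted p of 0.05 within the source. In BMDM no point is filled, and the 16 genes with a star other than Hk2 have the wound point to the right of the BMDM point.

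The difference for Pgk1 was 0.89 (SE 0.12, edgeR adjusted p = 9.26e-05), for Pfkl 0.80 (SE 0.12, adjusted p = 0.000297) and for Aldoa 0.65 (SE 0.10, adjusted p = 0.000366). In these genes the wound value was above 0 and the BMDM value below. Slc2a1 had a difference of 0.81 (SE 0.13, edgeR adjusted p = 0.000383) that came with a wound value of 0.03 and a BMDM value of -0.74. Ankrd37 had the largest difference of the 31, 1.59 (SE 0.30, edgeR adjusted p = 0.00183), at a low level in wounds. Hk2 went the other way, with -0.59 (SE 0.16, edgeR adjusted p = 0.0168). Hif1a, higher in T166A wounds, had a difference of 0.19 that was not called (SE 0.11, edgeR adjusted p = 0.271), as did Ndrg1 with -0.14.
Without BMDM T166A replicate 1, Hk2 (-0.49) and Egln3 (1.36) were not called, nor was Egln3 without BMDM T166A replicate 2 (1.24). Pfkp was not called without WT or T166A BMDM replicate 3 (0.30 in both). Without the batch term 13 were higher and 0 lower, the calls lost being Hk2, Pfkp, Pdk1 and Bnip3. With the length trend removed 17 were higher and 0 lower, since Hk2 (-0.33) was then not called and Hif1a was.

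WT wound macrophages and WT BMDM differed in the level of nearly every one of these genes, with the enzymes from aldolase to lactate dehydrogenase lower in wounds and Hk2, Pfkfb3, Slc2a1 and Hif1a higher. Of the 31, 11 were higher in wounds, 18 lower, and Pfkl and Egln3 were not called (edgeR adjusted p under 0.05), beside 83.6% of all genes called, 47.7% higher and 35.9% lower. Their median log2 difference was -0.85, against 0.36 for all genes. Tissue, culture, cell capture and sequencing run went with the source and cannot be told apart, and the fibroblast markers named above were at 7136 to 10994 CPM in the WT wound libraries. RLE size factors moved the median of all genes to 0.56 and that of these genes to -0.65. With each library's length trend removed, the median of all genes turned to -0.15, with 6282 higher and 7398 lower. The comparison of medians with all genes therefore depends on the scaling. These genes were part of the fit with the length trend removed, but their values in it are not given here. Beyond that fit, the part of transcript length in their source differences was not tested.

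Per kb, Aldoa, Pkm, Eno1 and Ldha were the 4 most abundant of the 31 in WT BMDM. Aldoa stood at 1059 ± 87.3 and Pkm at 1029 ± 69.7 CPM per kb (SD, n = 3), which did not differ beyond their spread, followed by Eno1 at 548.1 ± 70.6 and Ldha at 545.2 ± 66.2, which did not either. In WT wound macrophages Pkm led at 494.4 ± 15.2 CPM per kb (SD, n = 6), and Aldoa (328.6 ± 13.2), Pfkfb3 (318.9 ± 15.4) and Ldha (303 ± 13.8) followed. The means ± SD of Aldoa and Pfkfb3 overlapped, as did those of Pfkfb3 and Ldha, whereas Pkm stood apart. All 6 genes from aldolase to enolase were lower in wounds, from 3.57-fold for Tpi1 to 1.74-fold for Pgk1. Pkm was 2.08-fold and Ldha 1.80-fold lower. Ankrd37 (10.6-fold), Pdk1 (4.62-fold), Car9 (4.25-fold), Aldoc (4.17-fold) and Egln1 (2.86-fold) were also lower, as were Gpi1, Higd1a, Bnip3, Pfkm and Pfkfb4 (1.30- to 2.01-fold). Pfkfb4 was not called with RLE size factors (log2 -0.17).

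**Figure D4:**
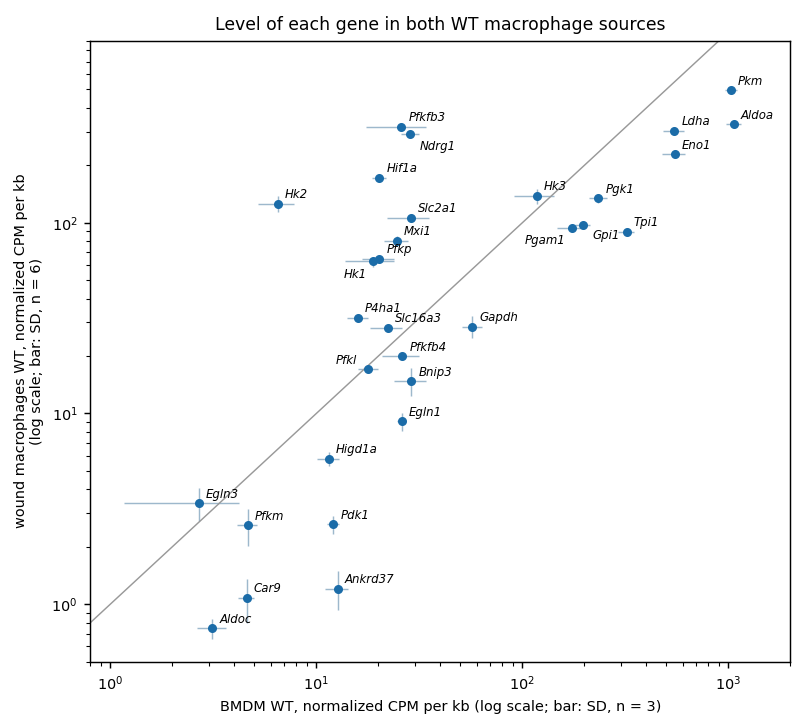
Mean level of each gene in WT BMDM (x axis) and WT wound macrophages (y axis), in normalized CPM per kb on log scales, with SD over 3 and 6 libraries and the line of equal level. Hk2, Pfkfb3, Ndrg1 and Hif1a lie far above the line, and Ankrd37, Pdk1 and Tpi1 far below it.

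The genes higher in wounds were led by Hk2, at 34.2 ± 6.66 CPM in BMDM (SD, n = 3) within its own table and 705.2 ± 68.8 CPM (SD, n = 6) in wounds, a 19.4-fold difference in the joint fit (log2 4.28, SE 0.14). Pfkfb3 was 12.4-fold higher (log2 3.64, SE 0.16), Ndrg1 10.3-fold (log2 3.36, SE 0.08) and Hif1a 8.53-fold (log2 3.09, SE 0.09). Slc2a1 was 3.76-fold, Hk1 3.40-fold, Mxi1 3.28-fold, Pfkp 3.23-fold and P4ha1 2.00-fold higher. Slc16a3 and Hk3 differed by less, at 1.28-fold and 1.20-fold, and Hk3 was not called without the filter on low counts or without BMDM WT replicate 1 or 2, BMDM T166A replicate 3 or wound WT replicate 1, 4 or 6 (log2 0.19 to 0.29). The edgeR adjusted p was 0.0377 for Hk3 and at most 0.000607 for the other 10.

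The share of each isoenzyme also differed between the sources. Hk3 made up 82.2% ± 1.74 of hexokinase RNA per kb in WT BMDM (SD, n = 3) and 42.3% ± 1.23 in WT wounds (SD, n = 6), while Hk2 went from 4.67% ± 1.18 to 38.5% ± 1.002. Pfkp went from 47.1% ± 1.81 to 76.7% ± 0.96 of phosphofructokinase RNA and Pfkl from 42% ± 1.66 to 20.2% ± 0.34. Pfkfb3 and Pfkfb4 were near equal in BMDM (49.3% ± 3.88 of their sum for Pfkfb3), and Pfkfb3 held 94.1% ± 0.24 of it in wounds. Egln3 went from 9.11% ± 4.21 of the summed Egln1 and Egln3 RNA to 27.1% ± 3.31, and to 33.4% ± 2.52 in T166A wounds. None of these shares overlapped between the WT sources.

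**Figure D5:**
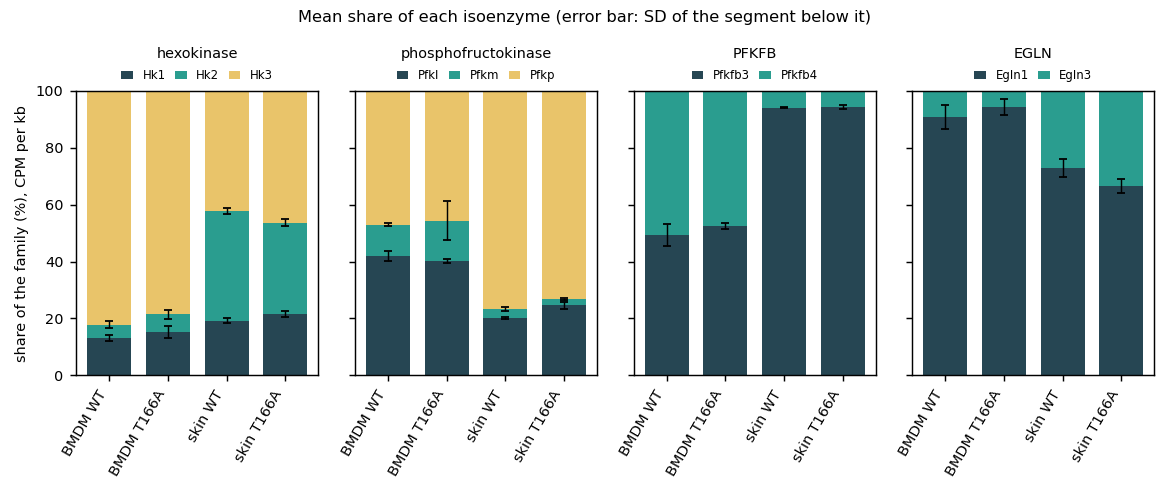
Mean share of each isoenzyme among the family members shown, from CPM per kb, in the 4 groups (BMDM n = 3, wound macrophages n = 6 per genotype), with error bars for the SD of the segment below them. Genes not shown, among them Egln2, Pfkfb1 and Pfkfb2, do not count towards the shares. Hk2, Pfkp, Pfkfb3 and Egln3 hold larger shares in wounds than in BMDM.

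Other genes of these pathways, from lists of genes outside the 31, gave a mixed picture in wounds and no edgeR call in BMDM. Of 27 other glucose transport and glycolysis genes tested in wounds, 8 were higher and 4 lower, a called share of 44.4% against 25.9% of all genes. The subunit gene Ldhb, whose product favours lactate use, went from 6.23 ± 1.12 to 11.4 ± 1.72 CPM (SD, n = 6; log2 0.87, edgeR adjusted p = 1.67e-05). Pgm1, which links glucose and glycogen, had a log2 fold change of 0.56, and Pdha1, a subunit of pyruvate dehydrogenase, one of 0.36. In the pentose phosphate pathway 3 of 8 (37.5%) were higher and 0 lower, namely H6pd (0.55), Taldo1 (0.29) and Tkt (0.18). Of 28 other HIF pathway and hypoxia-induced genes, 4 were higher and 3 lower, a called share of 25%. They included the glycogen synthase gene Gys1 (0.45) and, on the lower side, the angiogenic factor Vegfa, from 685.8 ± 29.3 to 570.6 ± 43.6 CPM (SD, n = 6; log2 -0.27, edgeR adjusted p = 0.000701), and the nuclear receptor Rora (-0.34). In BMDM 0 of 25, 0 of 8 and 0 of 25 were called by edgeR, with 2, 4 and 4 lower and 0 higher at an unadjusted p under 0.05 (831 of 13139 genes in all were lower at that level), and DESeq2 and limma-voom called 0 in each.

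Across the 12 wound libraries, after subtracting each genotype's mean, the 6 genes from aldolase to enolase had a median pairwise Pearson correlation of 0.51 over 15 pairs, from -0.21 to 0.76. Over all 465 pairs of the 31 genes the median was 0.22. Hif1a had a median of -0.50 with the 6, and Hk2 one of -0.26. These are descriptions over libraries that share depth, cell makeup and scaling.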

How the data were processed

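The authors deposited raw counts per RefSeq transcript, in 1 table for BMDM and 1 for wound macrophages. The tools named in the submitters' processing notes are FastQC 0.12.1, cutadapt 4.4, HISAT2 2.2.1 and featureCounts, with the mm10 build. The strand setting and how multiply mapped reads were treated are not stated there. The extraction protocol speaks of adipocytes, whereas the labels name macrophages, and the macrophage markers were abundant in all libraries. Rows were matched to genes through RefSeq (GENCODE for 29), 117 per table stayed unmatched (0.514% and 0.187% of counts) and were left out, and each gene kept its row with the highest summed CPM.

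Differences were fitted by edgeR 4.0.16 under R 4.3.3 (TMM, filterByExpr at minimum counts of 10 per library and 15 in total, robust quasi-likelihood F test), with Benjamini-Hochberg adjustment over all genes tested and a threshold of 0.05. BMDM were fitted with batch, wound libraries with genotype, and the source and interaction contrasts over all 18 libraries. All 31 genes passed this filter in each of these fits. A stricter filter among the alternatives left out Ankrd37, Aldoc and Car9 in wounds and Egln3 in BMDM. Residual degrees of freedom were 3 in BMDM, 10 in wounds and 13 in the joint fit. The biological coefficients of variation were 0.279, 0.133 and 0.179. Printed CPM are scaled by TMM factors within a source, or over both for levels per kb. The fits were tested on counts simulated with a fixed spread, smaller than that found, and without batch or length effects. Those tests cannot speak to such effects or to the larger spread. Alternatives included limma 3.58.1 (voom) and DESeq2 1.42.0, other scalings, filters and marker scores (mean log2 CPM, prior count 2).

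To see whether replicate numbers pair the libraries, group means were removed and libraries that share a number were correlated across genes. In BMDM the correlation was 0.200, 0.115 and 0.185, and each library correlated best with the one of its number. Replicates 1 and 2 share batch B1, so the batch label cannot pair them by number. Whether the numbers pair the libraries is therefore not settled. The reported BMDM fit has batch and no replicate block, and the fit with the block called 10 genes in all against 9. In wounds the correlation ran from -0.045 to 0.090, and the numbers were not used as pairs.

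The genes and lists were chosen with earlier results of these data known. By the rule for named genes all 31 were accounted for, with values in every library for those called in a source and for Hif1a, Slc2a1, Ldha and Gapdh, and up to 3 called genes per pathway list. For groups of 6 the lowest, median and highest library stand for all.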

Additional observations from a re-analysis of the deposited data

Results flagged for a closer look

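Car9, the hypoxia-induced carbonic anhydrase gene, read 2.83 CPM in wound T166A replicate 6, above the 1.75 to 2.12 CPM of the other 5 T166A wound libraries. The value lay within the 1.43 to 3.18 CPM of the WT wound libraries. That replicate was the 1 library set apart among 62 groups examined, where chance would set apart about 1 in 20 groups. A count of 1 in 62 is no excess over that rate.

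For 17 genes the genotype difference itself differed between wound macrophages and BMDM, by the edgeR test with the spread of both sources pooled. On the log2 scale, wound minus BMDM, it was 0.81 for Slc2a1, 0.80 for Pfkl, 0.44 for Pfkp, 0.65 for Aldoa, 0.45 for Tpi1, 0.76 for Gapdh, 0.89 for Pgk1, 0.53 for Pgam1 and 0.59 for Eno1. It was 0.45 for Pkm, 0.53 for Ldha, 0.75 for Slc16a3, 0.48 for Pdk1, 0.94 for Bnip3, 1.53 for Egln3 and 1.59 for Ankrd37, and -0.59 for Hk2.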

How the results depend on the processing

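In BMDM, genes called lower numbered 0 by edgeR but 7 by DESeq2, and 1 both by limma-voom and with no filter on low counts. The replicate block called 0 and left the BMDM median at -0.34. It changed no call among the 31 in wounds (12 higher, 2 lower) or in the interaction (16 higher, 1 lower). Hif1a in BMDM turned to -0.10 with the length trend removed and to -0.11 with the replicate block as well. Leaving out each BMDM library in turn gave 0 calls, medians of -0.38 to -0.28, and Hif1a values of -0.015 to 0.11. In wounds, the 12 higher and 2 lower genes became 5 and 0 with the muscle score, 0 and 1 with the adipocyte score, and 6 and 1 with the neutrophil score, and 1 was lower when scaled by library size alone. The wound median of 0.03 was then 0.20, -0.10, 0.10 and 0.12. With the adipocyte score, which cannot be told apart from the genotype, Slc2a1 turned to -0.30, Ldha to -0.19, Egln3 to -0.34 and Ankrd37 to -0.10. Leaving out each wound library gave 10 to 12 higher and 2 lower genes, medians of 0.03 to 0.07, and Slc2a1 values of -0.0073 to 0.062. Tpi1, Pgam1 or Ankrd37 were the calls lost. In the interaction, 0 were lower without the batch term or with the length trend removed, and leaving out each library gave 15 to 17 higher, 0 or 1 lower and medians of 0.39 to 0.50. Between sources, the median of -0.85 was -0.65 with RLE size factors and by DESeq2 and -0.24 between the T166A groups, where Pgk1 turned to 0.093. Leaving out each library gave 10 to 11 higher, 18 lower and medians of -0.90 to -0.73. The cause of these shifts was not tested. The BMDM test rests on 3 residual degrees of freedom, and Ankrd37, Car9 and Aldoc on few CPM in wounds.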

Other observations

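The test of the difference between sources also called genes of the neighbouring lists, which the text above does not name under that contrast and which are named here after their values were seen. Of 8 pentose phosphate genes, 4 had a higher T166A-to-WT ratio in wound macrophages than in BMDM by edgeR and 0 a lower one (background 6.1% and 8.17%). They were Pgd (log2 difference 0.70), which oxidises 6-phosphogluconate, Taldo1 (0.61) and Tkt (0.50), which shuttle carbon back to glycolysis, and Rpia (0.54), the ribose phosphate isomerase. All 8 differences were positive, with a median of 0.42. Of 27 other glucose transport and glycolysis genes, 5 were higher and 0 lower, among them Ldhb (1.23), Pgm1 (1.04) and Tigar (0.94), a phosphatase that turns flux away from glycolysis. Of 29 other hypoxia genes, 7 were higher and 2 lower.

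In wound macrophages, other list genes outside the naming rule were called in both directions. The pyruvate dehydrogenase kinase gene Pdk4, which fatty acids induce in many tissues, had a log2 fold change of 1.04, and Slc2a3, a high-affinity glucose importer, one of -0.56. The neuron- and muscle-type enolases Eno2 and Eno3 were lower (-0.39 and -0.41), where Eno1 was higher. With the skeletal muscle score as a covariate Eno3 had a log2 fold change of -0.48 and Pdk4 one of 1.74, of which only that of Pdk4 passed (edgeR adjusted p = 0.519 and 0.0305). With the adipocyte score Eno3 stood at -0.89 (SE 0.39) and Pdk4 at 0.18 (SE 0.45), and neither passed (edgeR adjusted p = 0.208 and 0.881).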
